A study of Drosophila simulans and Drosophila melanogaster and Drosophila sechellia with 48 samples.

Results

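The nuclear-encoded subunits of the mitochondrial respiratory chain and of ATP synthase were followed across whole males of 7 species of the D. melanogaster subgroup. The members were the probe sets of the Affymetrix Drosophila 1.0 array whose only gene symbol starts with ND-, UQCR-, ATPsyn, COX followed by a digit, or SdhA, SdhB, SdhC or SdhD. Keeping the brightest probe set per gene gave 66 genes, held by 68 probe sets, of the 12367 features on the array that were tested. Of these, 49 were ubiquitous subunits: 26 of complex I, 3 of complex II, 3 of complex III, 7 of complex IV and 10 of complex V. The remaining 17 were paralogs whose symbol adds L, or L and a digit, to that of a subunit: 5 of complex I, 3 of complex II, 1 of complex III, 4 of complex IV and 4 of complex V. For 14 paralogs the ubiquitous partner had a probe set of its own among the features used. ND-24L, SdhAL and ATPsynGL were left without a partner, ATPsynGL because the probe set of ATPsynG lists a second gene.

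Every sample was a pool of 20 males, 3 days after pupation, raised on cornmeal medium with yeast at 25 C under continuous light and knocked down with CO2. D. melanogaster was represented by an even mix of 10 isogenic lines, and D. simulans by 10 round-robin crosses between isogenic lines. Each of the 5 remaining species (D. santomea, D. yakuba, D. teissieri, D. mauritiana and D. sechellia) was represented by 1 line, so that a difference between these species is also one between 2 lines. Each species or cross had 3 arrays, 48 in all, and the number of arrays limits the precision of every value.

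Complexes I to IV pass electrons from NADH and succinate to oxygen and, at complexes I, III and IV, pump protons out of the mitochondrial matrix. Complex V lets the protons flow back through a rotating ring and makes ATP. In Drosophila many of these subunits have a second, duplicated gene, and transcripts of such duplicates are found mainly in the testis, whereas the ubiquitous subunits are abundant in muscle and in other tissues with a high demand for ATP.

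The arrays carry probes designed on D. melanogaster, so between species a change of transcript level and a change of the probed sequence cannot be told apart. D. melanogaster and D. simulans belong to an earlier collection and the other 5 species to a later one. Collection and species cannot be told apart across the collections, and the contrasts between groups were therefore made within each, with 1 contrast against all 4 other species beside them. The F-test among the 7 species and the deviations from their mean span both collections. In whole flies, fewer cells of a type and less RNA per cell cannot be told apart either. Yolk and eggshell transcripts, which males should lack, stood apart on 2 arrays: their summed signal was 126368 on D. sechellia replicate 1 and 188552 on replicate 3 of the D. simulans cross 37X43, against 1549.57 to 10465.9 on the other 46 arrays. Counts without these arrays are given where they differ from the reported ones. A difference was called when its adjusted p (limma, Benjamini-Hochberg over all 12367 features) was at most 0.05. The fit pools the spread over all groups, and replicates of D. yakuba and D. santomea correlated least (lowest r 0.659 and 0.701).

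Nearly all members differed among the 7 species, and ATP synthase subunits and the complex IV paralog COX4L differed by the widest margins. Of the 49 ubiquitous subunits, 42 (85.7%) were called in the F-test among species, and of the 17 paralogs all 17, where 66% of all features were called. By complex, 24 of 26 ubiquitous subunits of complex I were called, 2 of 3 of complex II, 2 of 3 of complex III, 6 of 7 of complex IV and 8 of 10 of complex V. The median F was 6.98 over the ubiquitous subunits, 6.34 over the paralogs and 3.86 over all features. Without D. sechellia replicate 1 the counts were 41 and 16.

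**Figure D1:**
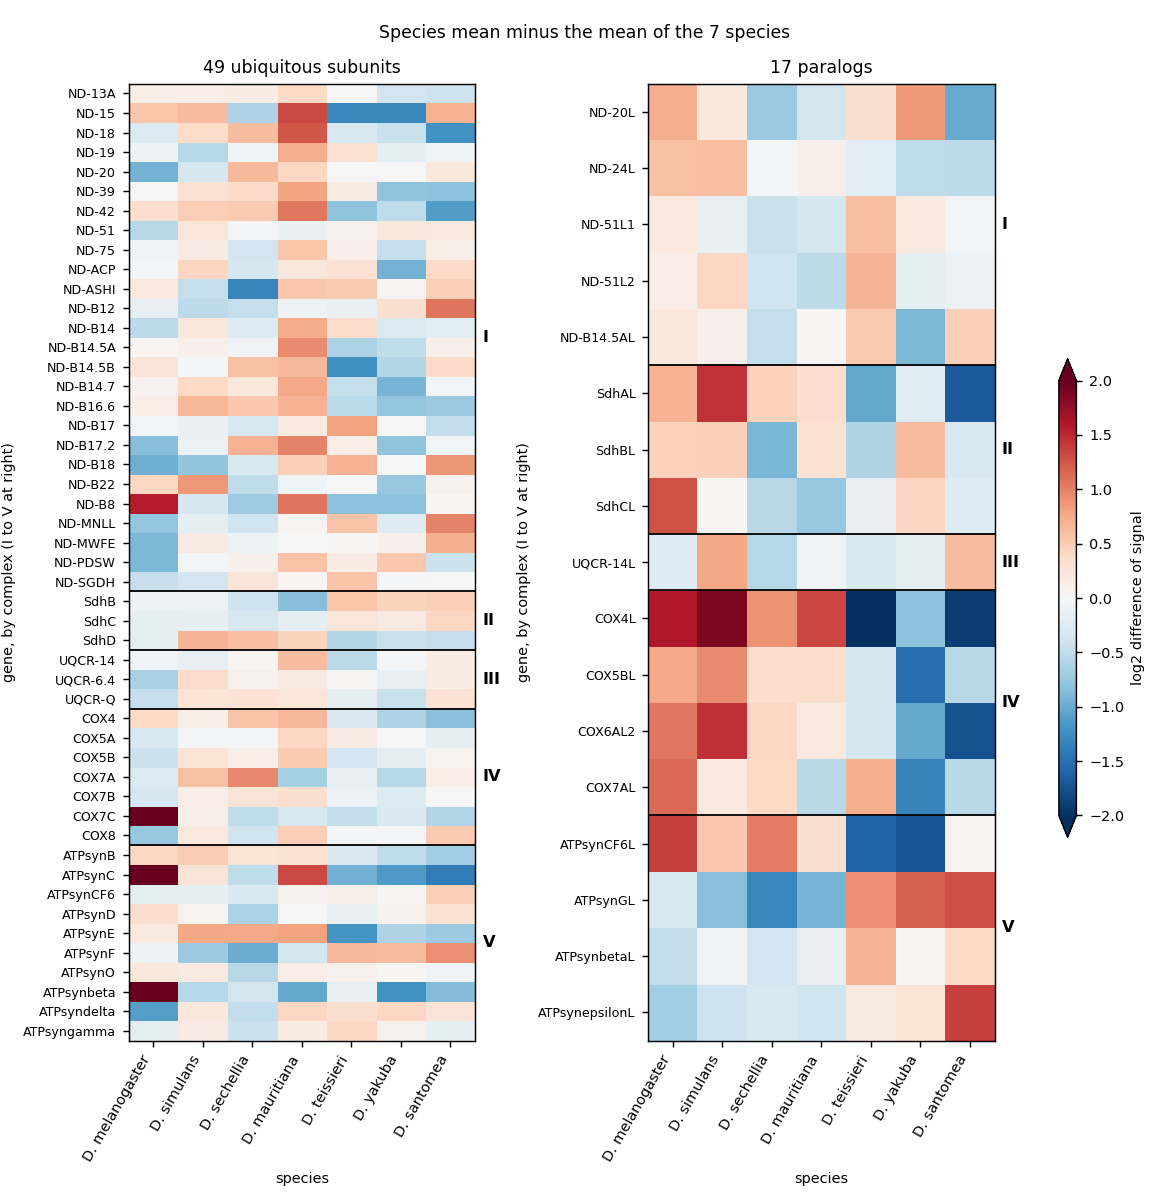
Deviation of each species mean from the mean of the 7 species (colour, log2 scale from -2 to 2) for the 49 ubiquitous subunits and the 17 paralogs, one row per gene and one column per species. D. mauritiana was above the mean of the species for 39 of the 49 ubiquitous subunits, and D. melanogaster and D. simulans were each above it for 13 of the 17 paralogs.

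ATPsynC, the subunit that forms the proton-carrying ring of ATP synthase, had the largest F among the ubiquitous subunits (40.9, adjusted p = 8.25e-13). On a log2 scale of quantile normalized signal its mean was 13.84 in D. melanogaster, 12.73 in D. mauritiana, 11.67 in D. simulans, 10.90 in D. sechellia, 10.45 in D. teissieri, 10.27 in D. yakuba and 10.01 in D. santomea. A dimmer probe set of the gene ranged from 6.66 in D. yakuba to 8.71 in D. sechellia, with 7.49 in D. melanogaster, and its F of 1.92 was not called (adjusted p = 0.134). The order of the species was thus not shared by both probe sets. The next largest were ATPsynE, subunit e of the membrane sector (29.1, adjusted p = 7.57e-11), ND-B22 (25.7, 3.59e-10) and ND-42 (25.0, 5.03e-10), which are accessory subunits of complex I, and SdhD, a membrane anchor of succinate dehydrogenase (21.7, 2.78e-09). ND-B22 was highest in D. simulans (13.79) and lowest in D. yakuba (12.17). At the other end, 7 ubiquitous subunits were not called: UQCR-14 (F 1.22, adjusted p = 0.359), ATPsyngamma (1.60, 0.213), ND-51 (1.70, 0.183), ATPsynO (1.82, 0.156), SdhC (1.93, 0.132), COX5A (2.29, 0.0797) and ND-B17 (2.44, 0.0640). Of these, ATPsyngamma forms the central stalk of ATP synthase, ATPsynO joins its catalytic head to the outer stalk, and ND-51 carries the flavin that accepts electrons from NADH.

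Among the paralogs COX4L, a second gene for subunit 4 of cytochrome c oxidase, had the largest F of all members (54.9, adjusted p = 1.57e-14). It was followed by ATPsynGL, a copy of subunit g of ATP synthase (24.9, 5.31e-10), SdhAL, a copy of the flavoprotein of succinate dehydrogenase (17.8, 2.79e-08), COX6AL2, a copy of the complex IV subunit encoded by levy (17.3, 3.67e-08), and COX5BL (15.2, 1.61e-07). ATPsynCF6L, a copy of the coupling factor 6 of the outer stalk, had an F of 11.6 (adjusted p = 2.60e-06). The other 11 paralogs, SdhBL, ND-51L2, ATPsynbetaL, UQCR-14L, COX7AL, SdhCL, ATPsynepsilonL, ND-20L, ND-24L, ND-B14.5AL and ND-51L1, ranged from 7.62 down to 2.77 (adjusted p = 0.0402 for ND-51L1). Of the 6 with the largest F, COX4L, SdhAL, COX6AL2, COX5BL and ATPsynCF6L had their lowest means in the yakuba complex (D. yakuba, D. santomea and D. teissieri), and ATPsynGL had its highest means there. A dimmer probe set that lists COX6AL2 and Ir75d did not share this order, with D. mauritiana (5.91) below D. yakuba (6.24) and D. santomea (7.04).

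D. mauritiana stood highest for 21 of the 49 ubiquitous subunits, where it was the highest species for 11.5% of all features. Its median deviation from the mean of the 7 species was 0.41 on the log2 scale, with 39 subunits above that mean. It was 0.55 with 42 above on the values as deposited, and 0.66 with 44 above with each array centred on its median. In complex I, 23 of 26 subunits were above, with a median of 0.56. All 3 D. mauritiana arrays had a median above 0 (0.42, 0.31 and 0.37). D. yakuba was below 0 by the median under all 3 scalings (-0.27, -0.25 and -0.32), as was D. sechellia (-0.08, -0.39 and -0.37), so that which of them was lowest depended on the scaling. D. melanogaster had the lowest value for 16 of 49, where it was lowest for 23.7% of all features. The medians of D. simulans and D. teissieri changed sign with the scaling, D. simulans from 0.14 to -0.11 and -0.10 and D. teissieri from -0.01 to 0.17 and 0.20. The summed signal of 8 muscle genes was 229640 to 387825 in D. mauritiana. This was above the 71570.6 to 81002.8 of D. melanogaster, the 47052.9 to 135932 of D. sechellia and the 90554 to 183098 of D. simulans. It lay within the 146923 to 533111 of D. teissieri. It overlapped the 140711 to 237130 of D. yakuba and the 132870 to 324974 of D. santomea. The part of muscle in these values was not tested.

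The paralogs had another order. D. melanogaster (median deviation 0.58) and D. simulans (0.42) were above the mean of the species for 13 of 17 paralogs each, and the other 5 species had medians from -0.39 (D. sechellia) to -0.09 (D. mauritiana). Each of the 7 medians kept its sign under both other scalings. D. simulans was highest for 6 paralogs and lowest for 0, where it was highest for 6.15% and lowest for 7.38% of all features. D. melanogaster and D. simulans are the 2 species of the earlier collection. The summed signal of 17 testis and sperm genes was 133786 to 192180 in D. melanogaster and 103101 to 438488 in D. simulans. It was 45662.3 to 91061.3 in D. sechellia, 51251.2 to 59145.3 in D. mauritiana, 148698 to 260241 in D. teissieri, 92242 to 157007 in D. yakuba and 115640 to 486723 in D. santomea. By this sum D. sechellia and D. mauritiana alone lay wholly below both earlier species. The median log2 signal of the 17 genes on an array gave another order. That median was 11.20 to 12.14 in D. melanogaster and 8.30 to 9.96 in D. simulans. In the later species it was 6.97 to 8.34 (D. sechellia), 7.58 to 7.68 (D. mauritiana), 7.52 to 7.94 (D. teissieri), 6.19 to 8.59 (D. yakuba) and 6.97 to 7.76 (D. santomea). The part of testis in the levels of the paralogs was not tested.

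**Figure D2:**
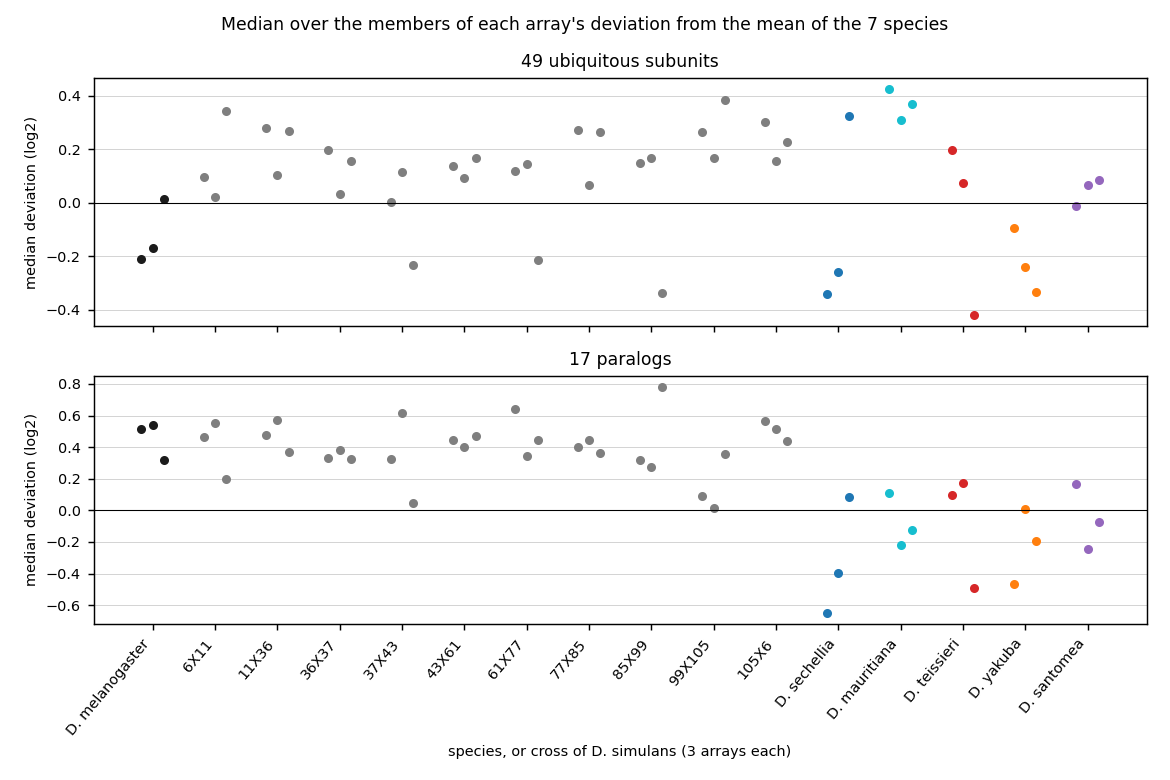
Median deviation of the 49 ubiquitous subunits and of the 17 paralogs from the mean of the 7 species on each of the 48 arrays (log2 scale, 1 point per array, grouped by species and, within D. simulans, by cross). The ubiquitous subunits were above 0 on all 3 D. mauritiana arrays, and the paralogs on all 3 D. melanogaster arrays (0.32 to 0.54) and all 30 D. simulans arrays (0.01 to 0.78).

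The first comparison set the 9 arrays of the yakuba complex against the 6 arrays of D. sechellia and D. mauritiana, 2 branches of the species tree within the later collection. Most of the complex I subunits that differed were lower in the yakuba complex, and ND-42, ND-18, ATPsynE and COX4 were lower by more than 1 on the log2 scale on non-overlapping arrays. ATPsynF, SdhB and the paralog ATPsynGL were higher. Of the 49 ubiquitous subunits, 24 (49%) were called, 7 higher and 17 lower, where 39.3% of all features were called, 18.4% higher and 21% lower. The median difference was -0.25 over the ubiquitous subunits and 0.05 over all features. On the values as deposited 12 were higher and 16 lower, and the share of all called features that were higher went from 46.7% to 55.2%. With each array centred on its median the split was 7 and 16. Of the 17 paralogs, 10 (58.8%) were called, 5 in each direction, with a median of 0.26. The arrays did not overlap for 2 ubiquitous subunits that were higher and 7 that were lower, where this held for 3.56% and 5.15% of all features. Without D. sechellia replicate 1, 21 ubiquitous subunits and 7 paralogs were called, and without 37X43 replicate 3, 25 and 10.

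In complex I, 13 of 26 ubiquitous subunits were called, 3 higher and 10 lower. ND-42, an accessory subunit of the membrane arm (NDUFA10 in mammals), was between 10.54 and 11.95 with a median of 11.77 on the yakuba complex arrays, and between 12.57 and 13.73 with a median of 13.23 on the D. sechellia and D. mauritiana arrays. It was 3.02-fold lower in the yakuba complex (-1.60, SE 0.16, adjusted p = 9.44e-10), with no overlap. ND-18 (NDUFS4 in mammals) spanned 8.74 to 11.12 against 11.51 to 12.55, and its lowest value was that of D. santomea replicate 2. It fell by 1.59 (SE 0.22, adjusted p = 4.03e-07). ND-B16.6 (NDUFA13 in mammals) spanned 12.50 to 13.45 against 14.03 to 14.52 and was 2.46-fold lower (-1.30, SE 0.17, adjusted p = 2.42e-07). All 3 were lower in each of the 3 species of the complex than in either species on the other side. The 3 that were higher overlapped: ND-ASHI (0.74, adjusted p = 0.00485), ND-B12 (0.71, 0.0176) and ND-MNLL (0.61, 0.0251). All 3 calls were lost with centred arrays (0.40, 0.48 and 0.59), and that of ND-ASHI also on the values as deposited (0.50). ND-ASHI reached 12.27 in D. mauritiana, within the 11.37 to 12.68 of the yakuba complex, and only the D. sechellia arrays (10.26, 10.12 and 10.70) were below it. For ND-MNLL the other probe set of the gene was lower in the yakuba complex (-1.16, adjusted p = 1.30e-04), so that its direction depended on the probe set. The paralogs ND-51L1 (0.65, adjusted p = 0.0131) and ND-51L2 (0.58, 0.0120), copies of the NADH-binding subunit, were higher.

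The 3 ubiquitous subunits of complex II moved in both directions. SdhB, the iron-sulphur subunit that hands on the electrons of succinate, was between 13.46 and 14.03 in the yakuba complex and between 12.41 and 13.43 in D. sechellia and D. mauritiana. The groups did not overlap, the closest array being D. sechellia replicate 3, and SdhB was 2.18-fold higher (1.13, SE 0.18, adjusted p = 5.94e-06). SdhC, a membrane anchor, was higher by 0.53 (adjusted p = 0.0389), a call lost under both other scalings (0.36 and 0.26). SdhD, the other anchor, spanned 11.41 to 12.43 against 12.77 to 13.43 and was 2.04-fold lower (-1.03, SE 0.15, adjusted p = 1.45e-06). SdhAL fell by 1.38 (SE 0.34, adjusted p = 0.00156), with values from 4.71 to 9.35 among the 9 arrays of the complex and from 7.94 to 9.13 among the other 6. Its 9.35 came from D. yakuba replicate 2, above all 6. In complex III none of the 3 ubiquitous subunits was called by limma, 1 had an unadjusted p under 0.05, and UQCR-14L was not called.

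**Figure D3:**
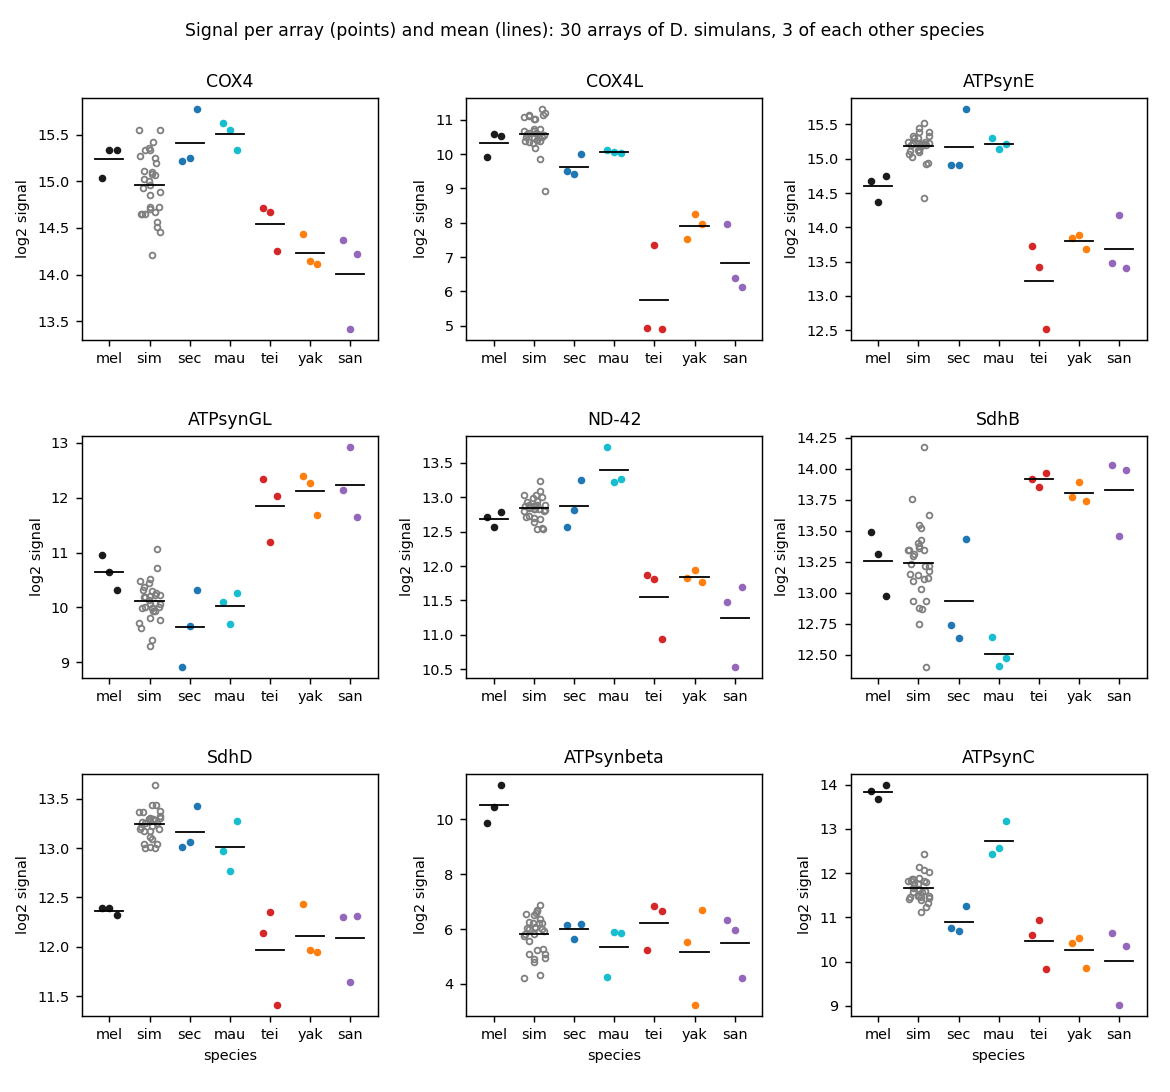
Log2 signal on each array (points) of 9 members, by species: COX4, COX4L, ATPsynE, ATPsynGL, ND-42, SdhB, SdhD, ATPsynbeta and ATPsynC. COX4L lay between 4.91 and 8.27 in the yakuba complex and between 9.42 and 10.11 in D. sechellia and D. mauritiana, and ATPsynbeta was above 9 only in D. melanogaster.

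In complex IV, 3 of 7 ubiquitous subunits were called, all lower on the quantile normalized scale. COX4, a subunit that binds ATP in mammalian cytochrome c oxidase, spanned 13.42 to 14.72 (median 14.25) in the yakuba complex and 15.22 to 15.77 (median 15.44) in D. sechellia and D. mauritiana. It was 2.30-fold lower, with no overlap (-1.20, SE 0.17, adjusted p = 5.56e-07). COX5B (-0.49, adjusted p = 0.0253) and COX7B (-0.42, 0.0266) changed sign with the scaling, to 0.27 and 0.47 on the values as deposited and to 0.17 and 0.37 with centred arrays, and were not called there. Of the 4 paralogs, COX4L fell furthest of all members. It was 4.95, 7.37 and 4.91 in D. teissieri, 7.51, 8.27 and 7.96 in D. yakuba and 7.95, 6.39 and 6.14 in D. santomea. In D. sechellia it was 9.49, 9.42 and 9.99, and in D. mauritiana 10.11, 10.07 and 10.02. Every array of the complex was thus below every array of the other pair, and COX4L was lower (-3.02, SE 0.30, adjusted p = 4.39e-10). Its deposited signal was 28.6 to 443 in the complex and 692 to 1074 in the other pair. No detection calls were at hand, so the size of this difference is no measure of a fold change. COX5BL (-1.15, SE 0.27, adjusted p = 8.24e-04) and COX6AL2 (-1.35, SE 0.36, adjusted p = 0.00287) were also lower, with overlapping arrays: COX6AL2 varied from 5.10 to 8.45 within the complex. Its deposited signal was 31.8 to 497 there, so its size has the limit given for COX4L. A dimmer probe set, left out because it lists COX6AL2 and Ir75d, had means of 5.23 in D. teissieri, 6.24 in D. yakuba and 7.04 in D. santomea. In D. sechellia it was 7.24, but in D. mauritiana 5.91, below D. yakuba and D. santomea. COX7AL was not called.

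Of the 10 ubiquitous subunits of complex V, 2 were higher and 3 lower in the yakuba complex. ATPsynE spanned 12.52 to 14.17 against 14.90 to 15.72 and was 3.09-fold lower (-1.63, SE 0.18, adjusted p = 3.19e-09). ATPsynC fell by 1.57 (SE 0.21, adjusted p = 1.45e-07) with overlapping arrays, and its other probe set was not called (-1.15, adjusted p = 0.0646). ATPsynB, a part of the outer stalk, was lower by less (-0.79, adjusted p = 4.11e-04), without overlap. ATPsynF, subunit f of the membrane sector, spanned 13.41 to 14.40 against 11.76 to 13.17 and was 2.64-fold higher (1.40, SE 0.21, adjusted p = 1.13e-06). ATPsynD, also in the outer stalk, was higher by 0.40 (adjusted p = 0.0400). The membrane sector thus held both the largest rise and the largest falls among these subunits.

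All 4 complex V paralogs were called. ATPsynGL was 12.34, 11.19 and 12.04 in D. teissieri, 12.39, 12.28 and 11.69 in D. yakuba, and 12.14, 12.92 and 11.64 in D. santomea. In D. sechellia it was 8.92, 9.67 and 10.32, and in D. mauritiana 10.10, 9.70 and 10.26. No array of the complex reached down to the other pair, and ATPsynGL was 4.73-fold higher (2.24, SE 0.24, adjusted p = 1.59e-09). ATPsynbetaL, a copy of the catalytic subunit, was higher by 0.65 (SE 0.15, adjusted p = 8.39e-04). ATPsynepsilonL, a copy of the central stalk subunit encoded by sun, was higher by 0.96 (SE 0.34, adjusted p = 0.0250), and D. yakuba replicate 2 (7.73) was below all 6 arrays of the other pair. ATPsynCF6L fell by 1.76 (SE 0.35, adjusted p = 1.09e-04), with D. teissieri arrays from 5.07 to 8.66. Its deposited signal was 48.9 to 413 in the complex and 266 to 1046 in the other pair, so the size of its difference has the limit given for COX4L. The 7 paralogs not called in this comparison were ND-20L, ND-24L, ND-B14.5AL, SdhBL, SdhCL, UQCR-14L and COX7AL.

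With the mean of D. melanogaster, D. simulans, D. sechellia and D. mauritiana in place of the pair, 27 ubiquitous subunits (10 higher, 17 lower) and 11 paralogs (4 higher, 7 lower) were called, where 49.8% of all features were. The split over the ubiquitous subunits was 18 and 18 on the values as deposited and 16 and 18 with centred arrays. COX4L (-3.33), ATPsynGL (1.97), ATPsynE (-1.48) and ND-42 (-1.41) kept arrays that did not overlap with any of the other 39, as did 0.768% of all features that were higher and 1.55% that were lower. In the comparison with D. sechellia and D. mauritiana, 39.3% of all features were called. Of 17 testis genes 8 were called there, 5 higher and 3 lower, with a median of 0.45. Their summed signal was 92242 to 486723 against 45662.3 to 91061.3, but their median log2 signal on an array overlapped (6.19 to 8.59 against 6.97 to 8.34). The 5 that were higher included Mst84Db and Mst87F, and the 3 that were lower were dj, Mst77F and betaTub85D. Of the 8 muscle genes 2 were called, both lower (fln and TpnC4), and of 3 fat body genes 1, lower. Against the mean of the other 4 species, 6 of the 17 testis genes were called, 1 higher and 5 lower, with a median of -0.07. Of the 8 muscle genes 5 were called against that mean, 3 higher and 2 lower.

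**Figure D4:**
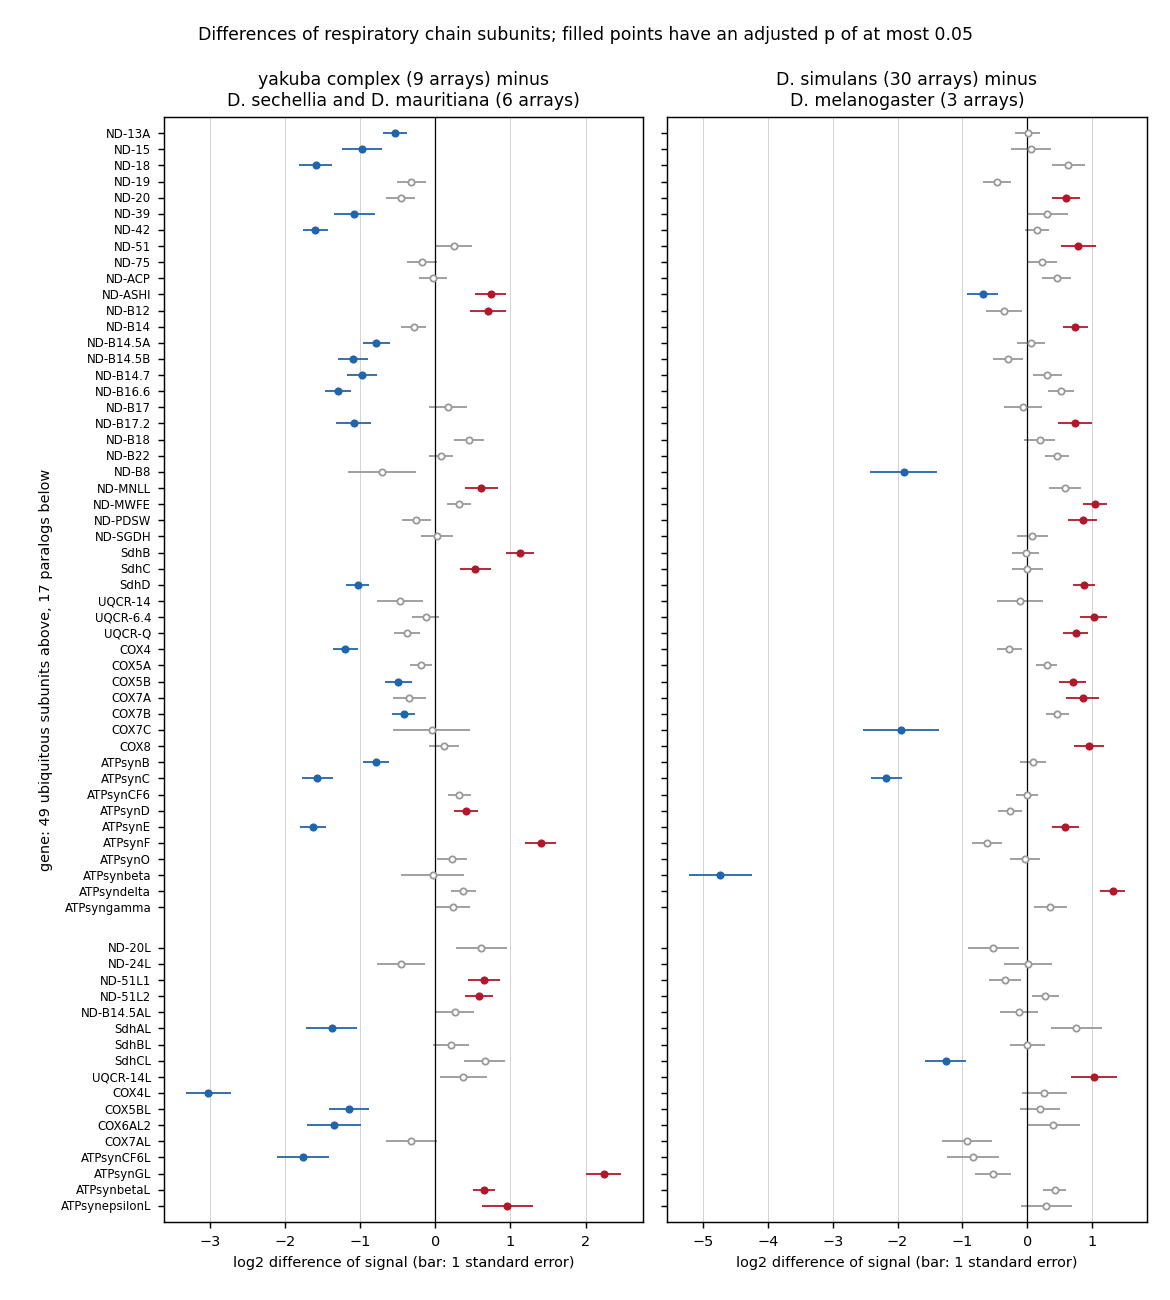
Log2 difference (points) with its standard error (bars) for every member, for the yakuba complex minus D. sechellia and D. mauritiana and for D. simulans minus D. melanogaster, ordered by complex. Filled points had an adjusted p of at most 0.05: 24 ubiquitous subunits and 10 paralogs in the first comparison, 19 and 2 in the second.

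The second comparison set the 30 D. simulans arrays against the 3 of D. melanogaster, the species of the earlier collection. Most called ubiquitous subunits were higher in D. simulans, spread over all 5 complexes. The widest differences were 2 ATP synthase subunits that were lower, each with a limit. ATPsynbeta was dim in D. simulans, and the fall of ATPsynC was not shared by its other probe set. Of the 49 ubiquitous subunits, 19 (38.8%) were called, 14 higher and 5 lower, where 19.2% of all features were called, 10.1% higher and 9.1% lower. The median difference was 0.23 over the ubiquitous subunits and 0.09 over all features. It was 0.28 (15 higher, 4 lower) on the values as deposited and 0.34 (12 and 4) with centred arrays. Only 2 of 17 paralogs were called, 1 in each direction, with a median of 0.02. The arrays did not overlap for 6 ubiquitous subunits that were higher and 3 that were lower, where this held for 2.27% and 5.96% of all features. Without D. melanogaster replicate 2, 8 ubiquitous subunits were called, and without replicate 1 or 2, 1 paralog. Without 37X43 replicate 3, 21 ubiquitous subunits and 2 paralogs were called, and without D. sechellia replicate 1, 17 and 2.

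ATPsynbeta, the catalytic subunit of ATP synthase, was 9.89, 10.46 and 11.25 in D. melanogaster and between 4.22 and 6.87 (median 5.99) in D. simulans. It was lower in D. simulans, without overlap (-4.73, SE 0.48, adjusted p = 4.03e-09). In the other 5 species it lay between 3.24 and 6.82, so that D. melanogaster alone was high. The deposited signal was 15.4 to 132 in D. simulans against 944 to 2450 in D. melanogaster, and the table used here holds no detection calls. Whether the probe set was above background outside D. melanogaster is thus not known, and the size of this difference is no measure of a fold change. ATPsynC was 13.85, 13.68 and 13.99 in D. melanogaster and 11.11 to 12.43 (median 11.63) in D. simulans, and fell by 2.17 (SE 0.24, adjusted p = 1.62e-08). Its other probe set differed in the opposite direction without passing the threshold (0.80, adjusted p = 0.362). ND-B8 (NDUFA2 in mammals) was 9.73, 9.79 and 10.25 against 6.81 to 9.64 (-1.91, SE 0.52, adjusted p = 0.00767). COX7C was 8.32, 7.71 and 7.46 against 3.95 to 8.70, with overlap (-1.95, SE 0.58, adjusted p = 0.0158). Its deposited signal was low as well, 168 to 330 in D. melanogaster and 13.5 to 423 in D. simulans, so the size of its difference has the same limit. Like ATPsynbeta, COX7C had its highest mean in D. melanogaster (7.83, against 5.17 to 5.88 in the other species). ND-ASHI was lower by less (-0.68, adjusted p = 0.0400), a call lost under both other scalings.

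Among the subunits that were higher in D. simulans, ATPsyndelta, a part of the central stalk, was 12.98, 12.80 and 13.19 in D. melanogaster and 13.51 to 14.68 (median 14.35) in D. simulans. No array overlapped, and it was 2.49-fold higher (1.32, SE 0.19, adjusted p = 3.12e-06). ND-MWFE (NDUFA1 in mammals) was 13.51, 13.50 and 13.86 against 14.24 to 15.23 (1.05, SE 0.19, adjusted p = 8.52e-05). SdhD was 12.39, 12.39 and 12.32 against a median of 13.26 and a highest value of 13.64, without overlap (0.88, SE 0.18, adjusted p = 4.04e-04). SdhD was thus high in D. simulans, D. sechellia and D. mauritiana and low in D. melanogaster and the yakuba complex. ND-B14 (0.74, adjusted p = 0.00485) and ND-PDSW (0.86, 0.00575) were also higher without overlap. ND-MNLL did not overlap either but missed the threshold (0.58, adjusted p = 0.103). ATPsynE was higher by 0.59 (adjusted p = 0.0371).

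In complex III, 2 of 3 ubiquitous subunits were higher: UQCR-6.4 (13.76, 13.83 and 14.67 against 14.41 to 15.55, 1.03, SE 0.21, adjusted p = 5.06e-04) and UQCR-Q (0.75, 0.00561). In complex IV, COX8 (13.65, 13.23 and 14.15 against 14.11 to 15.33) was higher by 0.95 (SE 0.23, adjusted p = 0.00260), and so were COX5B (0.70, 0.0127) and COX7A (0.86, 0.0155). D. melanogaster replicate 3 was the highest of the 3 for UQCR-6.4 and COX8 and the one that overlapped. Of the paralogs, SdhCL was 8.58, 8.88 and 9.15 in D. melanogaster and 6.47 to 9.01 (median 7.66) in D. simulans and fell by 1.26 (SE 0.32, adjusted p = 0.00419). UQCR-14L was 9.46, 10.19 and 10.52 against 9.68 to 12.33 (median 11.13) and was 2.04-fold higher (1.03, SE 0.35, adjusted p = 0.0355). Beside these values 5 of 17 testis genes were called, all lower in D. simulans (betaTub85D, -3.23). Of the 8 muscle genes 2 were higher and 1 lower, and of 3 fat body genes 1 was lower. The muscle sum was 90554 to 183098 in D. simulans, with all 30 arrays above the 71570.6 to 81002.8 of D. melanogaster. The median log2 signal of the 8 muscle genes on an array overlapped, at 12.20 to 13.20 in D. simulans and 11.95 to 12.26 in D. melanogaster. Their part in the members' values was not tested.

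A paralog and its partner can be compared by the log2 ratio of the 2 signals within an array, which a common factor for the whole array leaves unchanged. Quantile normalization, applied before these ratios were taken, is not such a factor, as it can change dim and bright signals unequally. Over the 14 pairs and both comparisons, 11 of 28 exact two-sided permutation tests over arrays passed after Benjamini-Hochberg adjustment over the 28, 4 in the later collection and 7 in the earlier. On the values as deposited 14 passed. The smallest p these designs allow is 1.998e-04 in the later collection and 1.833e-04 in the earlier. Replicate arrays of the same line or cross were permuted as separate units. These p-values thus hold for arrays and do not measure the spread between lines or species. In the yakuba complex the ratio of COX4L to COX4 was lower (-1.82, exact adjusted p = 0.0217), with no overlap between the groups, so that COX4L fell beyond COX4. The ratio of ATPsynCF6L to ATPsynCF6 was also lower (-2.08, exact adjusted p = 0.0217). As both paralogs were dim in the complex, the sizes of these shifts have the limit given above for COX4L. The ratio was higher for ATPsynepsilonL to sun (1.75, exact adjusted p = 0.0185) and for UQCR-14L to UQCR-14 (0.85, exact adjusted p = 0.0217). The ratio of COX6AL2 to levy, both of which were lower in the yakuba complex, differed by 0.03 (exact adjusted p = 0.968). Their patterns within the complex were not alike: levy was low in D. yakuba (12.59) and D. santomea (12.85), but at 14.64 in D. teissieri it was level with D. sechellia (14.60) and D. mauritiana (14.87). The pairs ND-B14.5AL with ND-B14.5A (1.04, exact adjusted p = 0.0667) and SdhBL with SdhB (-0.91, 0.121) missed the threshold.

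In D. simulans against D. melanogaster the ratio of ATPsynbetaL to ATPsynbeta was higher (5.16, exact adjusted p = 0.00257) and that of COX7AL to COX7A lower (-1.79, exact adjusted p = 0.00257), both without overlap between the 30 and the 3 arrays. In the first pair the partner moved, and the size of its shift has the limit given above for the dim ATPsynbeta signal outside D. melanogaster. In the second both did, in opposite directions (COX7AL -0.93, not called, and COX7A 0.86). The ratio was also lower for ND-20L (-1.12, exact adjusted p = 0.0185), SdhCL (-1.26, 0.0222), ND-51L1 (-1.13, 0.0380) and ATPsynCF6L (-0.83, 0.0476), and higher for UQCR-14L (1.14, exact adjusted p = 0.0185). The ratio of UQCR-14L to its partner was thus higher in the yakuba complex and in D. simulans, each against its own comparison group. The order of subtraction sets these signs, so their being equal is no replication. Without any one of the 3 D. melanogaster arrays 7 of the 28 tests passed. Without D. sechellia replicate 1, 13 passed, and without 37X43 replicate 3, 10.

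**Figure D5:**
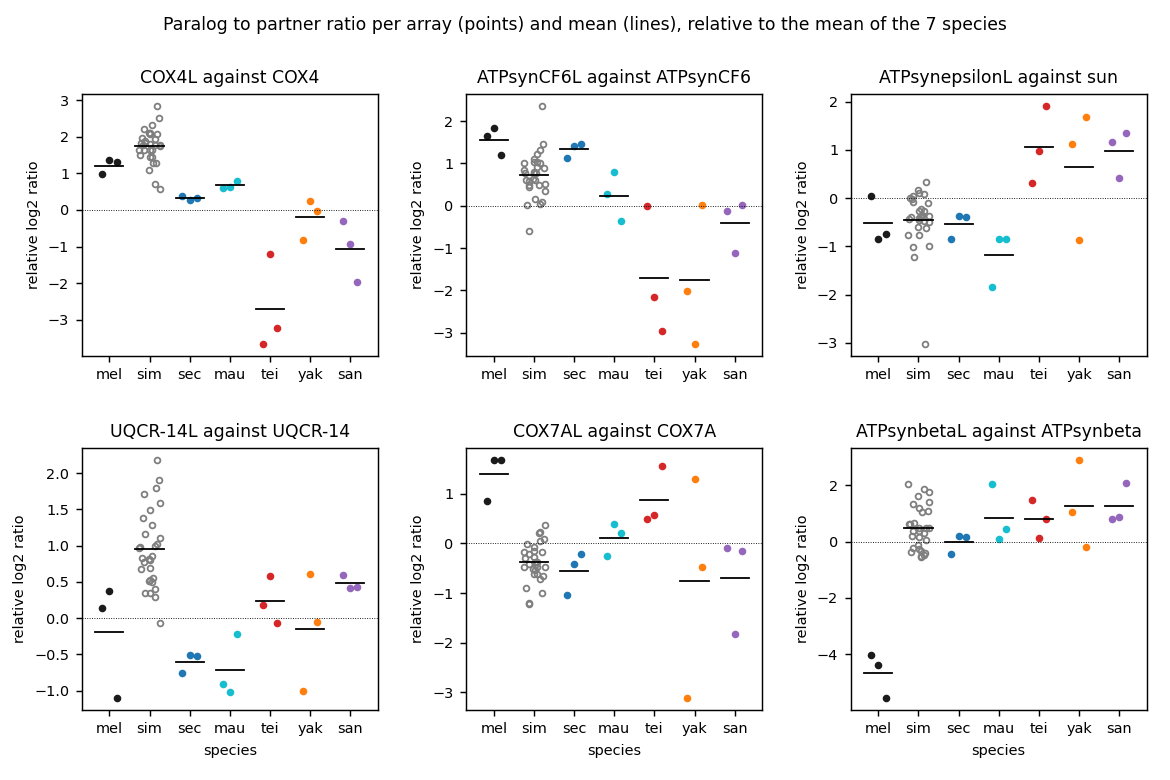
Log2 ratio of paralog to partner on each array (points), relative to the mean of the 7 species, for COX4L, ATPsynCF6L, ATPsynepsilonL, UQCR-14L, COX7AL and ATPsynbetaL. The mean ratio of COX4L to COX4 was -4.36 in D. simulans, -4.90 in D. melanogaster, -5.44 in D. mauritiana, -5.78 in D. sechellia, -6.32 in D. yakuba, -7.18 in D. santomea and -8.80 in D. teissieri.

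Between the sister species D. santomea and D. yakuba, with 3 arrays each, few members differed, and the ubiquitous subunits that did were all of complex I and all higher in D. santomea. Of the 49 ubiquitous subunits, 4 (8.16%) were called, where 5.05% of all features were called and 2.64% were higher. ND-15 (NDUFS5 in mammals) was 9.15, 10.67 and 9.04 in D. yakuba and 10.77, 12.90 and 11.14 in D. santomea, 3.96-fold higher (1.98, SE 0.41, adjusted p = 0.00289). ND-ACP, the mitochondrial acyl carrier protein, was 12.40, 11.41 and 11.71 against 12.90, 13.50 and 13.10 (1.33, SE 0.30, adjusted p = 0.00538). ND-MNLL (1.25, adjusted p = 0.0250, and 0.09 with its other probe set) and ND-B22 (0.84, 0.0395) were the other 2. The arrays of all 4 did not overlap. In all, 8 ubiquitous subunits did not overlap as higher and 2 as lower, where this held for 6.67% and 5.68% of all features. Besides the 4, ND-B18, ND-MWFE, ATPsynCF6 and UQCR-Q were above and ND-42 and ND-PDSW below, none of these 6 called.

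Of the paralogs 3 of 17 (17.6%) were called, 2 higher and 1 lower, where 2.42% of all features were lower. ND-20L, a copy of the iron-sulphur subunit at the end of the peripheral arm, was 9.04, 10.67 and 8.46 in D. yakuba and 7.97, 6.45 and 8.13 in D. santomea (-1.87, SE 0.53, adjusted p = 0.0309). ND-B14.5AL was 9.39, 8.79 and 9.18 against 10.92, 10.08 and 10.47 (1.37, SE 0.40, adjusted p = 0.0372). ATPsynCF6L was 6.51, 5.16 and 8.16 against 8.63, 7.98 and 8.61, with overlap (1.79, SE 0.54, adjusted p = 0.0418). SdhBL did not overlap but was not called (-0.95, adjusted p = 0.127). Within each group the spread was wide, with D. yakuba replicate 2 and D. santomea replicate 2 at opposite ends for ND-20L. Without D. santomea replicate 2, 1 ubiquitous subunit was called, without D. yakuba replicate 3, 2, and without D. santomea replicate 3, 1 paralog. With centred arrays 0 paralogs were called.

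Between D. sechellia and D. mauritiana, again with 3 arrays each, the ubiquitous subunits were mostly lower in D. sechellia. Of the 49, 7 (14.3%) were called, 1 higher and 6 lower, where 5.26% of all features were called, 2.32% higher and 2.94% lower. The median difference was -0.42, against 0.02 over all features. It was -0.85 (1 higher, 12 lower) on the values as deposited and -0.95 (0 and 8) with centred arrays. The 3 D. sechellia arrays were not alike: the median deviation of the ubiquitous subunits was -0.34 and -0.26 on replicates 1 and 2 and 0.33 on replicate 3, the last within the 0.31 to 0.42 of D. mauritiana. ND-ASHI (NDUFB8 in mammals) was 10.26, 10.12 and 10.70 in D. sechellia and 12.27, 12.18 and 12.22 in D. mauritiana, 3.63-fold lower (-1.86, SE 0.32, adjusted p = 1.68e-04). ATPsynC was 10.76, 10.68 and 11.25 against 12.43, 12.57 and 13.18 (-1.83, SE 0.32, adjusted p = 1.79e-04), and 0.17 with its other probe set. ND-15 was 10.17, 10.30 and 10.42 against 12.38, 12.28 and 12.02 (-1.93, SE 0.41, adjusted p = 0.00239). None of these 3 overlapped. ND-B14 (2.01-fold lower, adjusted p = 0.0127), ATPsyndelta (-0.91, 0.0250) and ND-B14.5A (-1.01, 0.0253) were the other 3 that were lower. COX7A was the exception, at 14.02, 13.60 and 13.62 against 12.14, 12.13 and 12.12 (1.62, SE 0.35, adjusted p = 0.00235). This call was lost with centred arrays (1.20, adjusted p = 0.0736).

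In this pair 15 ubiquitous subunits did not overlap as lower, where this held for 15.5% of all features, and 2 as higher (COX7A and ND-20), where it held for 15.4%. The 9 lower subunits among these that were not called were ATPsynD, ATPsynO, COX8, ND-19, ND-B18, ND-B22, ND-B8, ND-MNLL and ND-PDSW. The paralog SdhBL was called (9.69, 10.05 and 10.88 against 11.81, 10.92 and 11.49, -1.19, SE 0.37, adjusted p = 0.0474), a call lost without any 1 of 31 of the 48 arrays. COX4L (-0.44, adjusted p = 0.750) and COX7AL (0.95, 0.389) did not overlap and were not called. Without D. sechellia replicate 1, the array with yolk and eggshell transcripts, 4 ubiquitous subunits and 0 paralogs were called, and without D. mauritiana replicate 1 also 4 and 0. Of the 8 muscle genes 4 were lower in D. sechellia (Act88F, fln, up and Mlc1), with a median over the 8 of -1.80, and of 3 fat body genes 2 were lower. None of the 17 testis genes was called. The part of muscle in the difference was not tested.

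Among the 10 D. simulans crosses no member was called by limma, where 0.558% of all features (69) were. At an unadjusted p under 0.05 there were 3 ubiquitous subunits (6.12%) and 0 paralogs, against 8.65% of all features. These were ND-20, the subunit that holds the last iron-sulphur cluster before ubiquinone (F 3.85, adjusted p = 0.140), ND-B12 (3.00, 0.296) and COX4 (2.31, 0.520). ND-B14.5A (1.89, 0.679) and ATPsynO (1.72, 0.739) came next. For ND-20 the cross 99X105 was lowest, at 11.79, 12.05 and 12.52, and 11X36 had the highest mean, 13.53. For ND-B12 the cross 99X105 had the highest mean, 11.58, but its 3 arrays were 11.07, 11.13 and 12.54. The median SD of the 10 cross means was 0.194 over the ubiquitous subunits, 0.244 over the paralogs and 0.406 over all features, against median SDs of the 7 species means of 0.523, 0.692 and 0.726. The median residual SD of single arrays, over all 16 groups, was 0.335, 0.565 and 0.752. A mean of 3 arrays varies less than a single array, so these SDs are not on the same footing as those of the means.

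The cross means of the ubiquitous subunits were weakly correlated with each other, and less so without 2 arrays chosen after their values were seen. Over the 10 cross means the median Pearson r between 2 ubiquitous subunits was 0.26, with 75.5% of pairs above 0, and 0.31 between 2 of the same complex. It was -0.05 between a paralog and a ubiquitous subunit. Over pairs of all features it was -0.0005, with 49.9% above 0. All genes of a point share the same 3 arrays and their scaling, and genes are not independent replicates. Without 37X43 replicate 3 and 85X99 replicate 3 the median between 2 ubiquitous subunits was 0.14, with 63.4% above 0. On 85X99 replicate 3 the ubiquitous subunits had a median deviation from the D. simulans mean of -0.49 and the paralogs of 0.58, whereas the other 2 arrays of that cross had -0.01 and 0.06 for the ubiquitous subunits. On 37X43 replicate 3, the array with yolk and eggshell transcripts, the values were -0.25 and -0.39. The testis sum on 85X99 replicate 3 was 197503, the second highest of the 30 D. simulans arrays (highest 438488, median 158199) and close to the 196810 of 61X77 replicate 1. The median log2 signal of the testis genes was 9.18 there, against 9.16 and 8.89 on the other 2 arrays of the cross and 8.30 to 9.96 over D. simulans. The muscle sum on 85X99 replicate 3 was 92889.7, near the lowest of the 30 arrays (90554). The part of testis and muscle in that array's values was not tested.

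Other genes of the pathway were taken from lists of known components. In the yakuba complex against D. sechellia and D. mauritiana, where 39.3% of all features were called, 3 of 8 measured subunits and carriers with other symbols were lower and 0 higher: levy, low in 2 of the 3 species (-1.38, adjusted p = 1.69e-09), Cyt-c1L, a copy of cytochrome c1 (-2.50, 6.81e-09), and sun (-0.79, 0.00433). In D. simulans RFeSP, the Rieske protein of complex III (0.77, adjusted p = 0.00945), and ox, a small subunit of the same complex (1.04, 2.45e-04) were higher than in D. melanogaster. Of 9 measured genes of the TCA cycle, which feeds complexes I and II, 5 were lower and 0 higher in the yakuba complex, with a median of -1.17. The largest were Ogdh, a component of oxoglutarate dehydrogenase (-2.73, adjusted p = 6.60e-12), the aconitase mAcon1 (-2.57, 1.14e-09), and ScsbetaA (-1.92, 1.96e-10) and Scsalpha1 (-1.34, 0.00703), subunits of succinyl-CoA synthetase. Between D. simulans and D. melanogaster Idh3b was higher (1.02, adjusted p = 8.71e-04) and mAcon1 lower (-1.81, 4.40e-05). Ogdh was higher in D. santomea than in D. yakuba (1.72, adjusted p = 0.00247).

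Of 6 genes for the exchange of nucleotides and phosphate and for the outer membrane pore, 4 were called in the yakuba complex (39.3% of all features). Mpcp2, a phosphate carrier, was lower (-2.52, adjusted p = 6.54e-10), as were Porin2 (-1.18, 2.69e-06) and the ADP/ATP carrier sesB (-0.50, 0.0291), and porin was higher (0.70, 1.61e-04). Mpcp2 was also lower in D. simulans than in D. melanogaster (-1.08, adjusted p = 0.00771), and sesB in D. sechellia than in D. mauritiana (-1.06, 0.0186). Of 8 genes listed as assembly factors, the copper chaperone Scox (-1.13, adjusted p = 1.29e-05) and ttm50, a part of the protein import machinery (-1.33, 0.0198), were lower and the complex I factor CIA30 higher (0.77, 0.00117) in the yakuba complex, and Scox was higher in D. simulans than in D. melanogaster (0.68, 0.0248). Of 4 measured regulators of mitochondrial genes only TFAM, which packages mitochondrial DNA, was called (-0.75, adjusted p = 0.00162, in the yakuba complex). None of the genes on these 5 lists was called among the D. simulans crosses. Among the 7 species 8 of 8 other subunits and carriers, 7 of 8 assembly factors, 8 of 9 TCA cycle genes, 6 of 6 exchange and pore genes and 1 of 4 regulators were called, where 66% of all features were.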

How the data were processed

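RNA of 48 pools of whole males was hybridised to Affymetrix Drosophila 1.0 arrays. The authors deposited 1 intensity per probe set and array, a MAS5 signal per the submitters' processing notes (no version was given), scaled so that the mean of each array was 500 after trimming 2% at each end. The study's methods describe Loess smoothing and the masking of probes with a mismatch to D. yakuba; whether either was applied to the deposited intensities is not given in the sources used here, and no mask was applied here. Of 14010 probe sets, 44 controls were dropped; 12444 had 1 gene symbol in the platform annotation, 327 several and 1239 none. Because their probe sets list several symbols, 4 probe sets that match the family were left out.

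Intensities were floored at 1 (31 values, 0 of them of members), log2 transformed and quantile normalized. A gene with several probe sets was represented by the brightest. One limma (3.58.1, R 4.3.3) fit of 16 group means gave moderated F-tests and contrasts, in which the 10 crosses had equal weight in the mean of D. simulans, adjusted by Benjamini-Hochberg over 12367 features per comparison. Paralog to partner log2 ratios were compared by exact permutation of arrays. Scripts were tested on simulated data. Figures used Python 3.11.15 and matplotlib 3.10.9.

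Members and lists were chosen with earlier results of these data known. The text names every paralog; for each comparison and complex the 2 ubiquitous subunits with the smallest p past the threshold in each direction; those with the 5 largest F and those not called among species; members with non-overlapping arrays; and called genes of the pathway lists, at most 4 each. The marker lists were testis and sperm (17 measured), muscle (8), fat body (3) and female (11, of which 3 were called among species and 0 in the other 5 comparisons). Array medians before normalization were 7.56 to 8.25 on the log2 scale, and replicates correlated at 0.659 to 0.931 over features. The arrays of a group are separate biological replicates per the series' design, and p-values measure the spread between them. Same-numbered replicates did not deviate together (median correlation -0.00; above 0.1 for 3 of 360 pairs), so the numbers were not taken to pair arrays.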

Additional observations from a re-analysis of the deposited data

How the results depend on the processing

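Alternatives were the values as deposited, arrays centred on their medians, a floor of 16, a minimum mean log2 signal of 6, the mean of a gene's probe sets, array weights, no moderation, the replicate number as a block, and each array left out in turn; the other probe set of ATPsynC and ND-MNLL was added after the data were seen. Counts among species and crosses and for the yakuba complex stayed within 1.5 times of the reported ones under all these settings. For D. santomea against D. yakuba, 7 ubiquitous subunits were called as deposited, 7 without moderation and 1 with array weights, and 0 paralogs with array weights or centred arrays. For D. sechellia against D. mauritiana, 13 ubiquitous subunits were called as deposited and 25 with array weights, and 2 paralogs with array weights and 0 with the replicate block. For D. simulans against D. melanogaster 4 paralogs were called with array weights. With the replicate block COX7B among species (adjusted p = 0.0511), ND-20 (0.0580) and ND-B17.2 (0.0550) between D. simulans and D. melanogaster and SdhBL (0.0583) were also lost, with no other call of a named member changed. Leaving out 1 array at a time gave 39 to 44 ubiquitous subunits and 16 to 17 paralogs among species, 0 to 0 of both among crosses, 20 to 27 and 7 to 12 for the yakuba complex, 8 to 22 and 1 to 3 for D. simulans against D. melanogaster, 1 to 6 and 1 to 3 for D. santomea against D. yakuba, 4 to 9 and 0 to 1 for D. sechellia against D. mauritiana, and 7 to 13 of the 28 ratio tests. Over these fits 6455 single values kept direction and call, 265 lost the call and 0 reversed. Reversals in the yakuba complex were COX5B (0.27 as deposited, 0.17 centred), COX7B (0.47, 0.37) and ND-MNLL (-0.28 as the mean of its probe sets, -1.16 with the other one), and with its other probe set ATPsynC for D. simulans (0.80) and D. sechellia (0.17). The cause was not tested. Having 3 arrays a group limits what the comparisons of single species can show.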
